A study of Mus musculus with 6 samples.

Results

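Interferon-stimulated genes are the transcripts that a cell makes more of when an interferon reaches its surface. Of 37 listed genes of this kind, 36 were rows of the table of 20475 genes, and Mx1 was not analysed here. Members were taken by symbol, and 31 of them had at least 10 normalised reads in 2 or more libraries and are reported. The other 5, Mx2, Ifih1, Ifi44, Oasl2 and Usp18, were low. The same minimum was met by 12392 genes of the whole table.

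The cells were NIH3T3, a mouse embryonic fibroblast line, at passage 5, in 3 groups of 2 RNA-seq libraries, with RNA taken after 48 h. In the MDA-MB-231 EV group they were given extracellular vesicles (EVs), small membrane particles shed by cells, from a human triple-negative breast cancer line. In the MCF10A EV group the vesicles came from a non-tumorigenic human breast epithelial line, at the same stated number of vesicles per recipient cell, and the PBS group received the buffer alone. All groups were the same line in the same serum-containing medium, and no gene was altered in any of them. Whether replicates came from separate cultures is not in the labels, so p-values measure the spread between these libraries, which may be technical. Libraries held 22451173 to 29315530 reads on genes.

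In background terms, interferon binds a receptor pair that carries the kinases Jak1 and Tyk2, which phosphorylate STAT proteins such as Stat2. Stat2 acts with Irf9 in a complex that binds the interferon-stimulated response element (ISRE) in promoters, while the gamma-activated site (GAS) is bound by STAT dimers. The induced genes encode sensors of foreign nucleic acid, effectors that degrade or sequester viral RNA, membrane proteins that block entry or release of virus, and feedback inhibitors. Fibroblasts hold this pathway at a low resting level and are a classic cell in which it has been studied.

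The members did not move as a block: with MDA-MB-231 EVs, Ifit1, Ifit2, Ifit3, Irf1, Stat2, Dtx3l and Samd9l rose over PBS, while Isg15, Isg20, Rsad2, Ifitm1, Ifitm2, Ifitm3 and Trim25 fell. That is 7 higher and 7 lower of 31 by limma at an adjusted p under 0.05, or 45.2%, beside 34.8% of all 15025 genes tested and 41.6% of the genes that met the same minimum as the members. By direction, the background at that minimum was 21.4% higher and 20.2% lower. The median log2 change of the members was -0.06, against 0.01 for all genes tested. The share of members called lay near the background. Rsad2, counted here and in the next comparison, met the minimum through PBS alone. The 7 higher calls became 3 without either MDA-MB-231 EV library and 4 without PBS library 1, and the 7 lower calls became 4 without MDA-MB-231 EV library 1 or PBS library 1. Changes are given below as log2 ± SE of the fit over 2 libraries a group. By library values alone, 11 members lay above PBS in both libraries and 14 lay below, and the 2 groups did not overlap for 65.9% of all genes tested.

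With MCF10A EVs, Ifit2 and Irf1 rose over PBS, while Isg15, Isg20, Rsad2, Parp9, Parp14, Ifitm1, Ifitm2, Ifitm3, Trim25 and Gbp2 fell. That is 2 higher and 10 lower of 31, or 38.7%, beside 31.7% of all genes tested and 37.8% of those at the same minimum. In the downward direction alone the background was 14.6% of all genes tested and 17.2% at that minimum, and in the upward direction 17.1% and 20.6%. The median of the members was -0.26, against 8.14e-05 for all genes tested. In this comparison 6 members lay above and 18 below PBS in both libraries, and the groups did not overlap for 64.2% of all genes. The 10 lower calls became 6 without MCF10A EV library 2, 5 without PBS library 1 and 4 without PBS library 2, and the 2 higher calls became 1 without any 1 of the 4 libraries compared. Both comparisons use the same PBS libraries, so their values are given side by side below and are not counted as separate evidence.

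Set against each other, MDA-MB-231 EVs gave higher Ifit1, Ifit2, Irf1, Stat2, Parp9, Parp14, Dtx3l, Gbp2 and Samd9l than MCF10A EVs, and lower Isg20 and Ifitm3. This comparison asks whether the cancer line's vesicles and the non-tumorigenic line's vesicles leave fibroblasts with different transcripts. The calls were 9 higher and 2 lower of 31, or 35.5%, beside 16.9% of all genes tested and 20.2% at the same minimum. For higher calls alone the background was 6.84% and 8.09%, and for lower calls 10.1% and 12.1%. The 9 higher calls depended on the settings: limma without trend made 0 and limma without a filter 1, and without MDA-MB-231 EV libraries 1 and 2 there were 4 and 1, without either MCF10A EV library 5, while edgeR made 9 and DESeq2 6. The 2 lower calls became 1 without MCF10A EV library 2 and 0 without any other 1 library. The median of the members was 0.16, against -0.00063 for all genes tested. Between the 2 EV groups 16 members lay above and 5 below in both libraries, and 56% of all genes tested did not overlap.

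**Figure D1:**
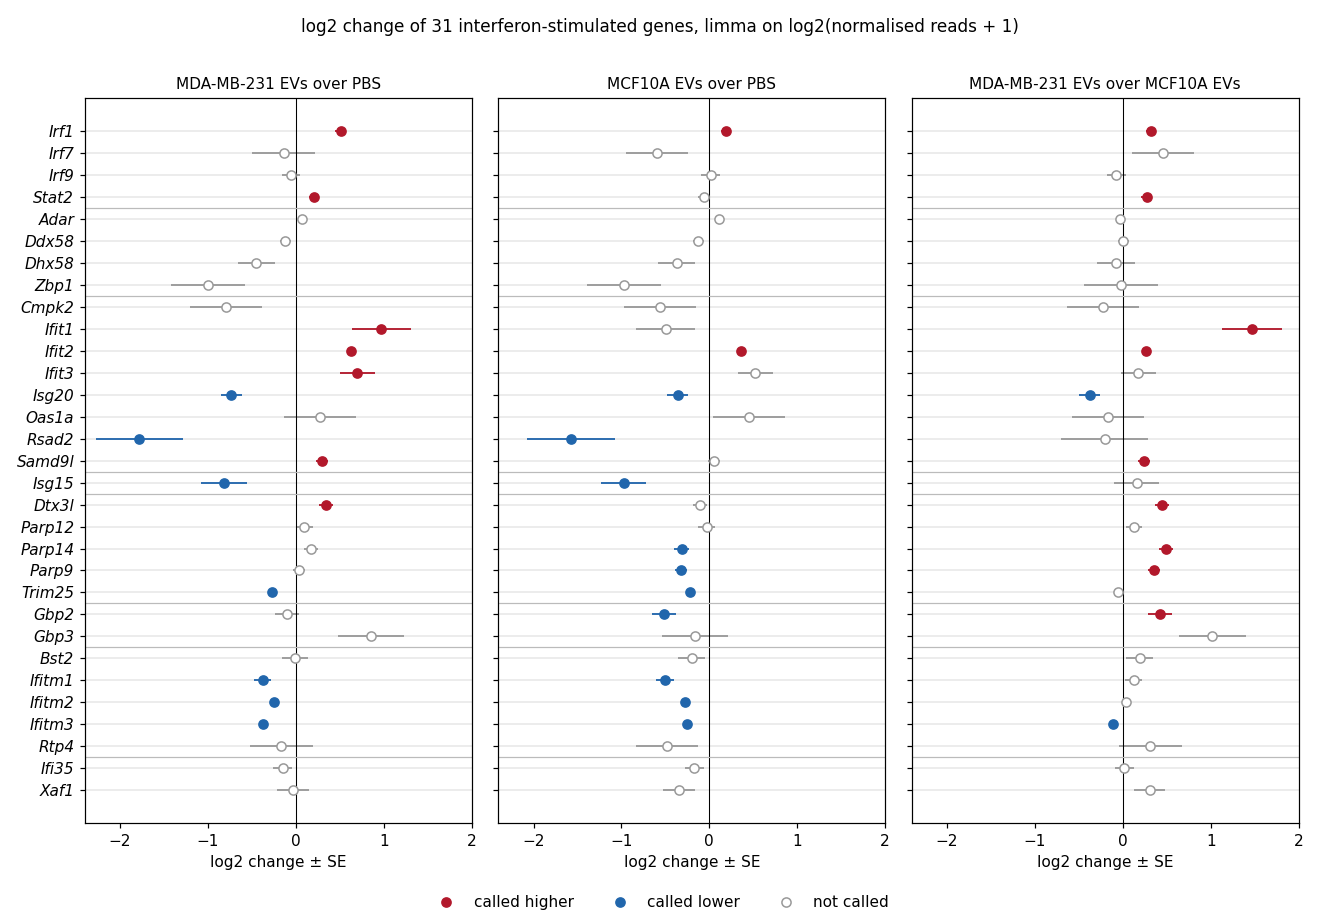
Log2 change ± SE of the 31 reported members in each comparison (x axis), with genes grouped by role down the page. Red points were called higher and blue points lower by limma, and open points were not called. In the left panel 7 red and 7 blue points stand on both sides of 0, in the middle panel blue points are 10 of the 12 called, and in the right panel 9 of the 11 called points are red.

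Of the 37 calls, 10 held under all 18 alternative settings, 27 were lost under at least 1, and none turned round. The calls that held were those of Ifit2, Ifitm2, Ifitm3 and Trim25 with either EV over PBS and those of Irf1 and Isg20 with MDA-MB-231 EVs over PBS. Scaling by library totals moved the share of higher calls among all genes called to 67.8%, against 51.4% on the deposited values, with MDA-MB-231 EVs over PBS, and the members' median to 0.01, with all genes at 0.07. For MDA-MB-231 over MCF10A EVs the share of higher calls was 61.7% by library totals and 50.7% after quantile normalisation, against 40.4%.

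Per kilobase of exon, which allows levels to be compared between genes, the members spanned a wide range of normalised reads. Ifitm3 stood at 9660, 10500 and 12500 reads per kb with MDA-MB-231 EVs, MCF10A EVs and PBS, and Ifitm2 at 9730, 9500 and 11600. Both lay at percentile 99.5 of the genes in the PBS libraries, whose median was 165 reads per kb. Next in PBS came Trim25 at 448, Ifit2 at 363 and Ifitm1 at 325 reads per kb. Isg15, one of the most induced genes in interferon-treated cells, had rank 17 of the 31 members in PBS, at percentile 27.9 of the genes. It stood at 34.4, 31 and 61.7 reads per kb. Ifit1 stood at 12.1, 4.22 and 6.10, Rsad2 at 0.839, 1.13 and 3.50, and Gbp3, the lowest in PBS, at 5.41, 2.58 and 2.90 reads per kb.

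The order of the lowest 6 in PBS, from Zbp1 at 4.65 to Gbp3 at 2.90 reads per kb, rests on under 25 reads per library and neighbours in it do not stand apart. Among the members with more reads, Irf1 and Adar were at 215 and 157 reads per kb with MDA-MB-231 EVs, and were neighbours in PBS at 151 and 149.

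**Figure D2:**
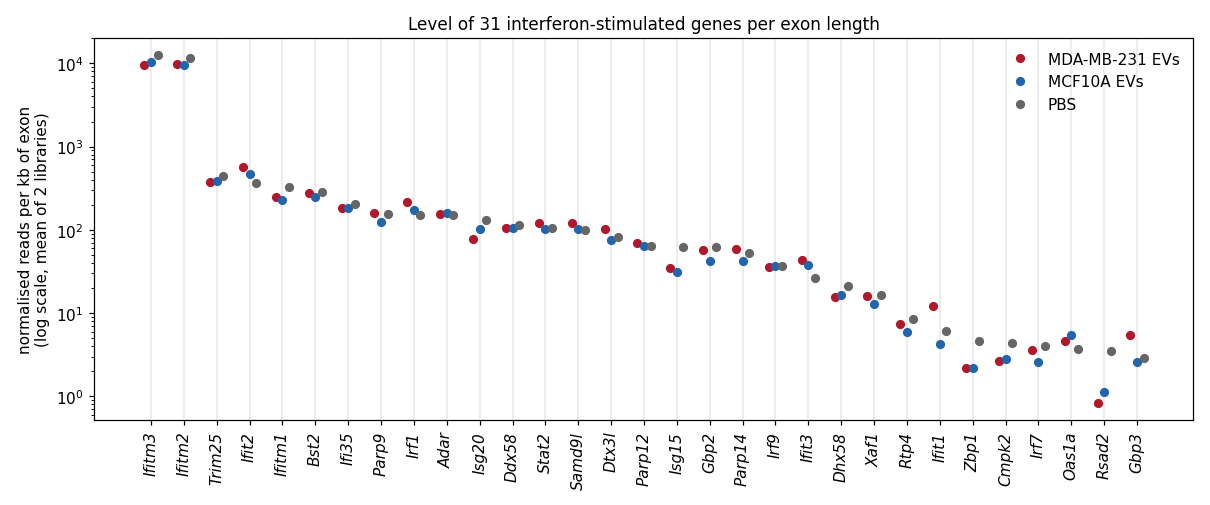
Level of each of the 31 members (normalised reads per kb of exon, mean of 2 libraries, log axis), ordered by the PBS level, with MDA-MB-231 EV (red), MCF10A EV (blue) and PBS (grey) points. Ifitm3 and Ifitm2 stand highest and apart from the rest, and the grey point lies above both others for Isg15 and Rsad2 and below both for Ifit2.

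The ligands that start the pathway were almost unread. Of 12 listed interferon and related ligand genes in the table, 8 had no read in any library (Ifna1, Ifna2, Ifna4, Ifna5, Ifna6, Ifnb1, Ifnl2 and Ifnl3), and among the other low ones no library held more than 1 read. A count of 0 allows up to 3 reads, or 0.102 to 0.134 CPM (reads relative to the library total) over the 6 libraries, for counting error only. The ligand gene that met the minimum was Il15, a cytokine that interferon also induces. It had 38.6 and 34.2 normalised reads with MDA-MB-231 EVs, 34.3 and 32.1 with MCF10A EVs, and 35.7 and 30.7 with PBS, and was not called in any comparison.

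Of 13 listed receptors, kinases and feedback inhibitors, 12 were measured, and Ifnlr1, the interferon-lambda receptor chain, had no read in any library. Of these 12, 0 were called higher and 7 lower with MDA-MB-231 EVs over PBS, 0 and 6 with MCF10A EVs over PBS, and 1 and 3 with MDA-MB-231 over MCF10A EVs. That is 58.3%, 50% and 33.3% of them, beside 41.6%, 37.8% and 20.2% of all genes at the same minimum, and for lower calls the background was 20.2%, 17.2% and 12.1%. Ifnar2, the interferon-alpha/beta receptor chain, had 2926 and 2824 normalised reads with MDA-MB-231 EVs, 3148 and 3060 with MCF10A EVs, and 3305 and 3428 with PBS. The steps were small: its log2 change was -0.23 with MDA-MB-231 EVs over PBS (limma adjusted p = 0.000122) and -0.12 with MCF10A EVs over PBS (limma adjusted p = 0.0203).
Socs3, an inhibitor of cytokine receptor signalling, had 2311 and 2128 normalised reads with MDA-MB-231 EVs, 2583 and 2522 with MCF10A EVs, and 2959 and 2875 with PBS. Its 3 groups did not overlap, with a log2 change of -0.40 ± 0.0415 for MDA-MB-231 EVs over PBS (SE, n = 2 each, limma adjusted p = 2.37e-06) and -0.20 for MDA-MB-231 over MCF10A EVs (limma adjusted p = 0.00333). 

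Among the transcription factors, Irf1 and Stat2 rose with MDA-MB-231 EVs, and Irf7 and Irf9 were not called in any comparison. Irf1, a factor that binds interferon response elements and is itself induced through a GAS, had 874 and 836 normalised reads with MDA-MB-231 EVs, 699 and 670 with MCF10A EVs, and 599 and 603 with PBS. The 3 groups did not overlap, with the MCF10A EV libraries between the others. The log2 change was 0.51 ± 0.0572 for MDA-MB-231 EVs over PBS (limma adjusted p = 4.9e-06), 0.19 for MCF10A EVs over PBS (limma adjusted p = 0.0212) and 0.32 for MDA-MB-231 over MCF10A EVs (limma adjusted p = 0.00114).

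Stat2, the STAT particular to the type I and III interferon complex, had 739 and 710 normalised reads with MDA-MB-231 EVs, 600 and 602 with MCF10A EVs, and 605 and 652 with PBS. Both MDA-MB-231 EV libraries lay above the other 4, while the MCF10A EV and PBS libraries lay close together. Its log2 change was 0.21 ± 0.0613 for MDA-MB-231 EVs over PBS (limma adjusted p = 0.0158), 0.27 for MDA-MB-231 over MCF10A EVs (limma adjusted p = 0.00651) and -0.06 for MCF10A EVs over PBS (limma adjusted p = 0.486). Among the measured STAT and IRF genes that are not members, Stat3 and the corepressor gene Irf2bp2 were the 2 called lower over PBS, with either EV.

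Irf7, the factor that amplifies interferon-alpha production, stayed at few reads, with 13.2 and 13.8 normalised reads with MDA-MB-231 EVs, 7.61 and 12 with MCF10A EVs, and 14.2 and 15.9 with PBS. Its log2 change of -0.14 over PBS with MDA-MB-231 EVs (limma adjusted p = 0.807) had an SE of 0.357, so a moderate change was not detectable at this depth. Irf9, the DNA-binding subunit of the complex, ran from 190 to 204 normalised reads over all 6 libraries. Irf9 shares 123 exon bases with Rnf31 on the same strand, and Irf7 shares 45 with Phrf1 on the other strand, so reads in those bases of Irf9, and of Irf7 if strand was not used in counting, cannot be told apart from their neighbours'.
The Irf1 call for MCF10A EVs over PBS was lost without any 1 of the 4 libraries compared (log2 0.16 to 0.22, limma adjusted p 0.0502 to 0.135). The Stat2 call was lost over PBS without either MDA-MB-231 EV library or PBS library 1 (limma adjusted p 0.0617 to 0.144), and over MCF10A EVs without any 1 of those 4 libraries (limma adjusted p 0.0615 to 0.105).

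The reported members grouped here under nucleic acid sensing were not called by limma in any comparison. With edgeR on the recovered reads 1 of them, Zbp1, was called in 1 comparison. They were Ddx58 and Dhx58, which encode the RNA helicases RIG-I and LGP2, and Zbp1, which binds Z-form nucleic acid. Adar, placed in the same group, encodes an RNA-editing enzyme rather than a sensor. Adar had 1181 to 1320 normalised reads over the 6 libraries and Ddx58 had 703 to 813. Dhx58 had 42.7 and 60.5 normalised reads with MDA-MB-231 EVs, 56.8 and 50.6 with MCF10A EVs, and 69.5 and 70.1 with PBS. Its EV libraries all lay below the PBS libraries, with a log2 change of -0.45 ± 0.213 for MDA-MB-231 EVs over PBS that did not pass (limma adjusted p = 0.122). Zbp1 likewise was lower in the EV libraries, with 10.1 and 5.41 normalised reads with MDA-MB-231 EVs, 8.57 and 6.70 with MCF10A EVs, and 12.1 and 20.7 with PBS. The EV libraries overlapped each other and lay below both PBS libraries. The difference of MDA-MB-231 EVs from PBS did not pass (limma adjusted p = 0.0822, edgeR log2 change -1.08 with adjusted p = 0.0612), and the log2 change of -0.98 for MCF10A EVs over PBS did not pass in limma (adjusted p = 0.0956) but did in edgeR (adjusted p = 0.0499). Adar shares 1365 exon bases with Chrnb2 on the other strand, and which strand was counted is not given in the sources used here.

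Of 13 other genes of nucleic acid sensing, 3 were called higher and 5 lower with MDA-MB-231 EVs over PBS, 4 and 5 with MCF10A EVs over PBS, and 1 and 1 between the EVs. That is 61.5%, 69.2% and 15.4% of them, beside 41.6%, 37.8% and 20.2% of all genes at the same minimum. For higher calls alone that background was 21.4%, 20.6% and 8.09%, and for lower calls 20.2%, 17.2% and 12.1%. Mb21d1, which encodes the DNA sensor cGAS, rose, with 460 and 478 normalised reads with MDA-MB-231 EVs, 427 and 463 with MCF10A EVs, and 359 and 329 with PBS. The EV libraries all lay above PBS, with log2 changes of 0.45 ± 0.0786 for MDA-MB-231 EVs (limma adjusted p = 0.000347) and 0.37 for MCF10A EVs (limma adjusted p = 0.00204). Tlr4, the endotoxin receptor gene, fell, with a log2 change of -0.31 for MDA-MB-231 EVs (limma adjusted p = 6.22e-06) and -0.23 for MCF10A EVs over PBS (limma adjusted p = 0.000122).

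The 8 reported effectors that act on RNA or nucleotides went both ways with MDA-MB-231 EVs over PBS. Ifit1, Ifit2, Ifit3 and Samd9l rose, Isg20 fell, and Cmpk2 and Oas1a were not called. Rsad2 also fell, but met the minimum through PBS alone. With Rsad2 counted, 75%, 37.5% and 50% of the 8 were called in the 3 comparisons, with MDA-MB-231 over MCF10A EVs last. The background at the same minimum was 41.6%, 37.8% and 20.2%. Ifit1, Ifit2 and Ifit3 are neighbours on chromosome 19 and encode proteins that bind foreign RNA and restrain its translation. Ifit1 had 34.5 and 29.9 normalised reads with MDA-MB-231 EVs, 8.69 and 13.7 with MCF10A EVs, and 19.4 and 13 with PBS. The MDA-MB-231 EV libraries lay above all others, and MCF10A EV library 2 lay between the PBS libraries. The log2 change of Ifit1 was 0.97 ± 0.338 for MDA-MB-231 EVs over PBS (limma adjusted p = 0.0363), -0.50 for MCF10A EVs over PBS (limma adjusted p = 0.3) and 1.47 for MDA-MB-231 over MCF10A EVs (limma adjusted p = 0.00698).

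Ifit2, the most abundant of the 3, had 2141 and 2265 normalised reads with MDA-MB-231 EVs, 1908 and 1755 with MCF10A EVs, and 1419 and 1434 with PBS. All 3 groups stood apart, in the same order as for Irf1. The log2 change of Ifit2 was 0.63 ± 0.0462 for MDA-MB-231 EVs over PBS (limma adjusted p = 6.78e-08), 0.36 for MCF10A EVs over PBS (limma adjusted p = 3.07e-05) and 0.27 for MDA-MB-231 over MCF10A EVs (limma adjusted p = 0.000914). Ifit3 had 71.1 and 79.8 normalised reads with MDA-MB-231 EVs, 64.6 and 68.8 with MCF10A EVs, and 51.9 and 40.9 with PBS. Its EV libraries all lay above PBS, and the call passed for MDA-MB-231 EVs (log2 change 0.70, limma adjusted p = 0.0124) but not for MCF10A EVs (log2 change 0.52, limma adjusted p = 0.0586), where edgeR passed it (adjusted p = 0.0426). Ifit3 and its near-identical copy Ifit3b may share reads, so its level is uncertain.

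Ifit1 lost its call over PBS without any 1 of the 4 libraries compared (log2 0.70 to 1.25, limma adjusted p 0.0586 to 0.243), and over MCF10A EVs without either MDA-MB-231 EV library or MCF10A EV library 1 (limma adjusted p 0.106 to 0.129). Ifit3 lost its call over PBS without either MDA-MB-231 EV library or PBS library 2 (limma adjusted p 0.0625 to 0.117), and Ifit2 its call over MCF10A EVs without MDA-MB-231 EV library 2 (limma adjusted p = 0.0991, in a range of 2.79e-05 to 0.119 over all alternatives).

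Samd9l, a cytoplasmic antiviral restriction factor gene, had 626 and 694 normalised reads with MDA-MB-231 EVs, 560 and 553 with MCF10A EVs, and 531 and 539 with PBS. The MDA-MB-231 EV libraries lay above the rest, with a log2 change of 0.30 ± 0.0663 over PBS (limma adjusted p = 0.00225) and 0.24 over MCF10A EVs (limma adjusted p = 0.0199). The call over MCF10A EVs was lost without any 1 library other than MDA-MB-231 EV library 1 (limma adjusted p 0.062 to 0.197).

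Rsad2 encodes viperin, which makes a nucleotide that ends viral RNA chains, and it lies beside Cmpk2, a nucleotide kinase gene, on chromosome 12. Rsad2 had 4.06 and 3.22 normalised reads with MDA-MB-231 EVs, 7.42 and 2.37 with MCF10A EVs, and 18.3 and 12 with PBS. Every EV library lay below both PBS libraries. The log2 change was -1.78 ± 0.497 for MDA-MB-231 EVs (limma adjusted p = 0.0109) and -1.58 for MCF10A EVs over PBS (limma adjusted p = 0.0245). No EV library held more than 7 reads of it. Rsad2 met the minimum through the PBS libraries alone, where it was high, so its fall supports nothing about the list, and its calls were lost without any 1 of the 4 libraries for MDA-MB-231 EVs (limma adjusted p 0.056 to 0.146) and without any 1 of the 6 libraries but MCF10A EV library 1 for MCF10A EVs (limma adjusted p 0.0845 to 0.231).
Cmpk2 had 6.13 and 15.8 normalised reads with MDA-MB-231 EVs, 11.8 and 11.9 with MCF10A EVs, and 16.4 and 19.7 with PBS, and was not called.

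Isg20, an exonuclease gene, stood at 3 levels, with 154 and 137 normalised reads with MDA-MB-231 EVs, 191 and 186 with MCF10A EVs, and 262 and 225 with PBS. The groups did not overlap, and MDA-MB-231 EV libraries were lowest. The log2 change was -0.74 ± 0.12 for MDA-MB-231 EVs over PBS (limma adjusted p = 0.000183), -0.36 for MCF10A EVs over PBS (limma adjusted p = 0.0328) and -0.38 for MDA-MB-231 over MCF10A EVs (limma adjusted p = 0.0449). The smaller steps were lost when any 1 of the 6 libraries was left out, with limma adjusted p of 0.0524 to 0.261 for MCF10A EVs over PBS and 0.0769 to 0.297 between the EVs. Oas1a, which makes the activator of RNase L, ran from 6.52 to 12.9 normalised reads and was not called.

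Isg15, the ubiquitin-like modifier that cells attach to many proteins after interferon, fell with both kinds of EV. It had 25.4 and 26.6 normalised reads with MDA-MB-231 EVs, 26.7 and 20.1 with MCF10A EVs, and 44.6 and 48.6 with PBS. The EV libraries overlapped each other and lay well below PBS. The log2 change was -0.82 ± 0.258 for MDA-MB-231 EVs (limma adjusted p = 0.0226) and -0.98 for MCF10A EVs over PBS (limma adjusted p = 0.00909), and 0.16 ± 0.258 between the EVs (limma adjusted p = 0.742). With at most 52 reads in a library, the calls were lost without any 1 of the 4 libraries for MDA-MB-231 EVs (limma adjusted p 0.0855 to 0.131) and without MCF10A EV library 2 or either PBS library for MCF10A EVs (limma adjusted p 0.0587 to 0.0863). Usp18, which removes Isg15 from proteins and restrains the receptor, was low, at 3 to 8 reads.

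**Figure D3:**
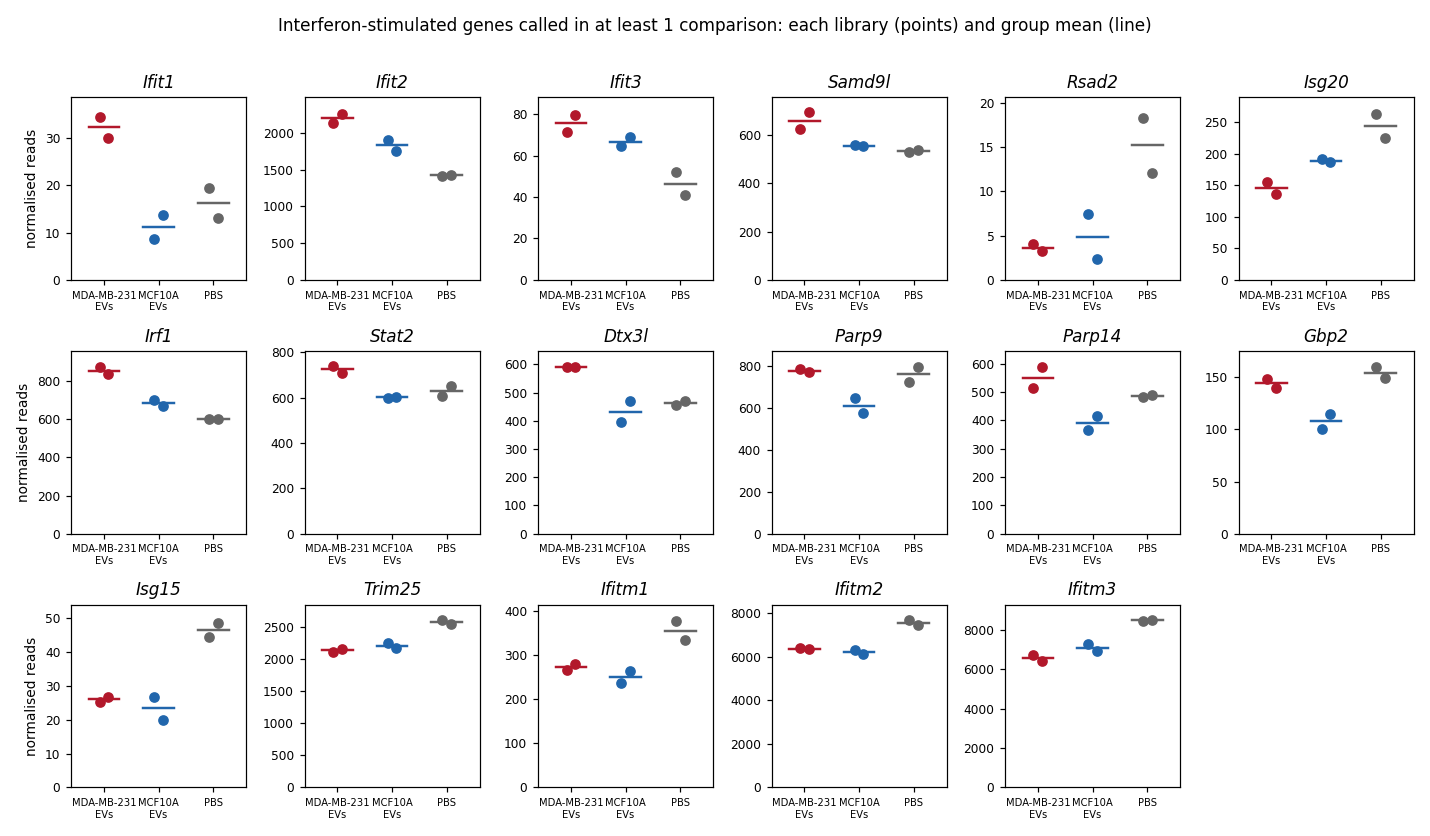
Normalised reads (y axis, from 0) of the 17 members called in at least 1 comparison, with each library as a point and the group mean as a line, for MDA-MB-231 EVs (red), MCF10A EVs (blue) and PBS (grey). Ifit2, Irf1 and Isg20 are among the members with 3 separate groups. Stat2, Samd9l and Dtx3l are among those whose red points stand above the other 4 libraries.

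Of the 5 ubiquitin and ADP-ribose enzymes, 1 was called higher and 1 lower with MDA-MB-231 EVs over PBS, 0 and 3 with MCF10A EVs over PBS, and 3 and 0 with MDA-MB-231 over MCF10A EVs. That is 40%, 60% and 60% of them, beside 41.6%, 37.8% and 20.2% of all genes at the same minimum. Parp9, Dtx3l and Parp14 lie together on chromosome 16, Parp9 and Dtx3l proteins form a ubiquitin ligase, and Parp14 is an ADP-ribosyltransferase. Dtx3l had 589 and 590 normalised reads with MDA-MB-231 EVs, 397 and 469 with MCF10A EVs, and 456 and 471 with PBS. Parp9 had 784 and 774 with MDA-MB-231 EVs, 646 and 575 with MCF10A EVs, and 725 and 798 with PBS. Parp14 had 513 and 586 with MDA-MB-231 EVs, 367 and 415 with MCF10A EVs, and 481 and 491 with PBS. In each of the 3 genes both MDA-MB-231 EV libraries lay above both MCF10A EV libraries, and Parp9 in the MDA-MB-231 EV libraries lay within the range of PBS.

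Over MCF10A EVs, MDA-MB-231 EVs gave log2 changes of 0.45 ± 0.0798 for Dtx3l (limma adjusted p = 0.00109), 0.35 ± 0.0677 for Parp9 (limma adjusted p = 0.00202) and 0.49 ± 0.0827 for Parp14 (limma adjusted p = 0.000743). Over PBS, Dtx3l rose by 0.35 on the log2 scale with MDA-MB-231 EVs (limma adjusted p = 0.00306). With MCF10A EVs over PBS, Parp9 fell by 0.32 (limma adjusted p = 0.00202) and Parp14 fell by 0.32 (limma adjusted p = 0.00862). Dtx3l and Parp9 share 458 exon bases on opposite strands, and reads in those bases cannot be told apart if strand was not used in counting.

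The calls between the EVs were lost without either MDA-MB-231 EV library for Dtx3l (limma adjusted p 0.0771 to 0.0953), without either of these or MCF10A EV library 2 for Parp9 (limma adjusted p 0.0622 to 0.108), and without MDA-MB-231 EV library 2 for Parp14 (limma adjusted p = 0.0859, in a range of 3.59e-05 to 0.115 over all alternatives). The calls over PBS were lost without either MDA-MB-231 EV library or PBS library 1 for Dtx3l (limma adjusted p 0.0691 to 0.0829), without MCF10A EV library 2 or PBS library 2 for Parp9 (limma adjusted p 0.0595 to 0.0755), and without MCF10A EV library 1 or either PBS library for Parp14 (limma adjusted p 0.0871 to 0.135).

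Trim25, a ubiquitin ligase gene known for its part in RIG-I signalling, fell with both kinds of EV. It had 2116 and 2148 normalised reads with MDA-MB-231 EVs, 2247 and 2168 with MCF10A EVs, and 2611 and 2549 with PBS. The EV libraries were close to each other and below PBS, with log2 changes of -0.28 ± 0.0368 for MDA-MB-231 EVs (limma adjusted p = 2.74e-05) and -0.23 for MCF10A EVs over PBS (limma adjusted p = 0.000251). Parp12, another ADP-ribosyltransferase gene, ran from 244 to 288 normalised reads and was not called.

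Of the GTPase genes, Gbp2 and Gbp3 encode guanylate-binding proteins that coat vacuoles holding pathogens. Gbp2 had 148 and 140 normalised reads with MDA-MB-231 EVs, 100.2 and 115 with MCF10A EVs, and 159 and 149 with PBS. The MCF10A EV libraries were the lowest, with a log2 change of -0.52 ± 0.136 over PBS (limma adjusted p = 0.00843), and MDA-MB-231 EVs were 0.42 above MCF10A EVs (limma adjusted p = 0.0469). Gbp3 had 18.3 and 17.1 normalised reads with MDA-MB-231 EVs, 6.52 and 10.3 with MCF10A EVs, and 7.68 and 11.3 with PBS. Its MDA-MB-231 EV libraries lay above the other 4, but the log2 changes of 0.86 over PBS (limma adjusted p = 0.0976) and 1.02 over MCF10A EVs (limma adjusted p = 0.0839) did not pass. The Gbp2 call between the EVs was lost without any 1 of the 6 libraries (limma adjusted p 0.0752 to 0.264), and its call over PBS without MCF10A EV library 1 or either PBS library (limma adjusted p 0.0505 to 0.0879). Reads of the Gbp family are uncertain between its similar copies.

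The Ifitm genes, a cluster on chromosome 7 whose proteins sit in membranes and hinder virus fusion, fell with both kinds of EV. Ifitm3 had 6699 and 6406 normalised reads with MDA-MB-231 EVs, 7264 and 6909 with MCF10A EVs, and 8456 and 8482 with PBS. Ifitm2 had 6387 and 6359 with MDA-MB-231 EVs, 6308 and 6132 with MCF10A EVs, and 7692 and 7438 with PBS. Ifitm1 had 266 and 279 with MDA-MB-231 EVs, 237 and 264 with MCF10A EVs, and 377 and 334 with PBS. In all 3 genes every EV library lay below both PBS libraries.

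The log2 change of Ifitm3 was -0.37 ± 0.0326 for MDA-MB-231 EVs over PBS (limma adjusted p = 3.87e-07) and -0.26 for MCF10A EVs over PBS (limma adjusted p = 2.57e-05). That of Ifitm2 was -0.25 (limma adjusted p = 1e-05) and -0.28 (limma adjusted p = 4.99e-06) in the same order, and that of Ifitm1 was -0.38 (limma adjusted p = 0.00639) and -0.50 (limma adjusted p = 0.001). Ifitm3 and Ifitm2 are the most abundant members, and their falls over PBS, small as folds, held under all 18 alternatives. Ifitm3 was also 0.11 lower on the log2 scale with MDA-MB-231 than with MCF10A EVs (log2 change -0.11, limma adjusted p = 0.0268), a call lost without any 1 library but MCF10A EV library 2 (limma adjusted p 0.0772 to 0.281). The Ifitm1 call for MDA-MB-231 EVs over PBS was lost without either MDA-MB-231 EV library or PBS library 1 (limma adjusted p 0.0623 to 0.11). Reads shared between Ifitm copies make the split among them uncertain.

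Bst2, which encodes tetherin, a protein that holds budding virus at the cell surface, ran from 183 to 284 normalised reads over the 6 libraries and was not called. Rtp4 ran from 9.78 to 21.6, and Ifi35 and Xaf1 from 285 to 371 and from 58.1 to 83.3, and none of them was called in any comparison. The 5 low members held at most 11 reads in a library. None of them was called, and changes in them were not detectable at this depth.

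Promoter sequences of RefSeq (build GRCm38.p6), from 250 bases before to 50 after the start, were found for 29 of the 36 members. The ISRE core was searched as GAAA, then any 2 bases, then GAAA, and the GAS as TTC, then any 3 bases, then GAA, on both strands, with overlapping matches counted. The ISRE core was in 13 of 29 members, or 44.8%, beside 3.99% of 27025 genes with such a sequence, and the GAS was in 8, or 27.6%, beside 9.55%. The members were listed as interferon-stimulated genes, so this excess describes the list and not a response to EVs. Members with the ISRE core stood on both sides of the calls over PBS for MDA-MB-231 EVs. Ifit1, Ifit3 and Stat2 were 3 of the 7 that rose, or 42.9%. Isg15, Ifitm2, Ifitm3 and Rsad2 were 4 of the 7 that fell, or 57.1%, with Rsad2 meeting the minimum through PBS alone. Among the 26 reported members with a sequence the share was 46.2%. A match describes the letters alone and shows no binding.
Stretches of 100 bases before the start are shown 5′ to 3′ on the gene's strand with the matches in capitals. They come from members called in opposite directions and were chosen because they hold a match.
Ifit1, chr19:34640749-34640848, plus strand, 2 ISRE cores read on the opposite strand: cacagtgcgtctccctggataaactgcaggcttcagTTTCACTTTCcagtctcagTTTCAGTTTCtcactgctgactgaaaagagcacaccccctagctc
Irf1, chr11:53769878-53769977, plus strand, 1 GAS: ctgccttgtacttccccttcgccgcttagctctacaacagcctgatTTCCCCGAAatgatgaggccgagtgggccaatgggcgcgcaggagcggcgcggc
Isg15, chr4:156200836-156200935, minus strand, 3 overlapping ISRE cores: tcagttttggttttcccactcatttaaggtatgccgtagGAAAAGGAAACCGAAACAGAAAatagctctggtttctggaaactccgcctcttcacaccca
Ifitm2, chr7:140955962-140956061, minus strand, 1 ISRE core: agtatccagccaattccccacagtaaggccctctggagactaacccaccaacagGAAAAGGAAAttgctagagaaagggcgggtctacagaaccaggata
Ifit1 and Irf1 rose with MDA-MB-231 EVs, and Isg15 and Ifitm2 fell. That each holds at least 1 of these elements follows from how they were chosen and is not a result.

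**Figure D4:**
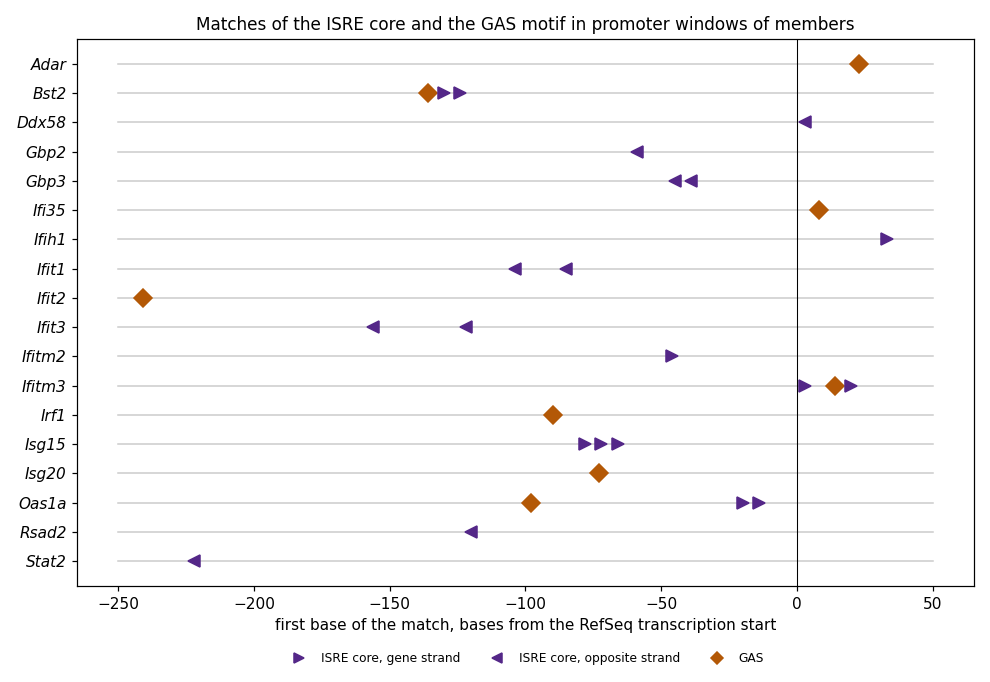
Matches of the ISRE core (purple, pointing along or against the gene's strand) and the GAS (orange) in the promoter windows of the 18 members that hold either, by distance in bases from the RefSeq start (x axis). Isg15 has 3 ISRE cores and Ifit1 has 2 upstream of the start, and Irf1 has a GAS alone.

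The other genes of the pathway, from lists that hold no member, also moved in both directions. Of 79 measured, 12 were called higher and 24 lower with MDA-MB-231 EVs over PBS, 9 and 24 with MCF10A EVs over PBS, and 9 and 5 with MDA-MB-231 over MCF10A EVs. These are 45.6%, 41.8% and 17.7% of them, beside the 41.6%, 37.8% and 20.2% of all genes at the same minimum. By direction, that background was 21.4%, 20.6% and 8.09% for higher calls and 20.2%, 17.2% and 12.1% for lower calls. Over PBS their lower calls stood above that background and their higher calls below it, and between the EVs the reverse held. Their median log2 changes were -0.06, -0.10 and 0.07. Within them, 47 further interferon-stimulated genes had 8 higher and 10 lower, 4 and 11, and 7 and 1 in the same order of comparisons. These are 38.3%, 31.9% and 17% of the 47, below the same background in each comparison when both directions are counted together. By direction, the 47 stood on the same sides of the background as the 79.

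Slfn9, a schlafen family gene, had the largest rise over PBS among these genes, with 2769 and 2681 normalised reads with MDA-MB-231 EVs, 2382 and 2439 with MCF10A EVs, and 1583 and 1679 with PBS. Its 3 groups stood apart, with log2 changes of 0.74 ± 0.0399 for MDA-MB-231 EVs over PBS (limma adjusted p = 2.28e-09) and 0.18 for MDA-MB-231 over MCF10A EVs (limma adjusted p = 0.0063). Its relative Slfn2, by contrast, fell with MDA-MB-231 EVs, with 259 and 273 normalised reads, against 306 and 389 with MCF10A EVs and 361 and 341 with PBS (log2 change over PBS -0.40, limma adjusted p = 0.00796). Ifi30, a lysosomal thiol reductase gene of antigen processing, rose with both EVs, with 398 and 474 normalised reads with MDA-MB-231 EVs, 396 and 405 with MCF10A EVs, and 298 and 330 with PBS (limma adjusted p = 0.000912 and 0.00881 over PBS).

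Ifi27, a mitochondrial protein gene strongly induced by interferon in many cells, fell with both EVs, with 639 and 644 normalised reads with MDA-MB-231 EVs, 723 and 699 with MCF10A EVs, and 855 and 905 with PBS. The log2 change of Ifi27 was -0.46 ± 0.0564 for MDA-MB-231 EVs over PBS (limma adjusted p = 1.25e-05). Its relative Ifi27l2a was called lower with MCF10A EVs alone of the 3 comparisons, at 52.5 and 43.7 normalised reads, against 79.3 and 79.4 with PBS (log2 change -0.72, limma adjusted p = 0.0111). The interferon-inducible GTPase gene Irgm2 was called lower in the same comparison, with 48.3 and 43.0 normalised reads with MCF10A EVs, against 82.0 and 59.5 with PBS (limma adjusted p = 0.0469).

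Psmb9 and Psmb10 encode catalytic subunits of the immunoproteasome, which cuts peptides for presentation. Psmb9 had 36.5 and 21.5 normalised reads with MDA-MB-231 EVs, 6.69 and 20.9 with MCF10A EVs, and 36.6 and 24.1 with PBS, and its call for MCF10A EVs over PBS (log2 change -1.24, limma adjusted p = 0.0398) rests on groups whose own 2 libraries differ widely. Psmb10 rose with MDA-MB-231 EVs, at 267 and 242 normalised reads, against 209 and 199 with MCF10A EVs and 177 and 214 with PBS (log2 change 0.39, limma adjusted p = 0.017). Gbp7 differed between the EVs, with 60.9 and 57.6 normalised reads with MDA-MB-231 EVs and 40.6 and 28.4 with MCF10A EVs (log2 change 0.79, limma adjusted p = 0.0302). Irf2bp2, the corepressor gene, had 3483 and 3725 normalised reads with MDA-MB-231 EVs, 2676 and 3486 with MCF10A EVs, and 4615 and 4366 with PBS, so all EV libraries lay below PBS.

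**Figure D5:**
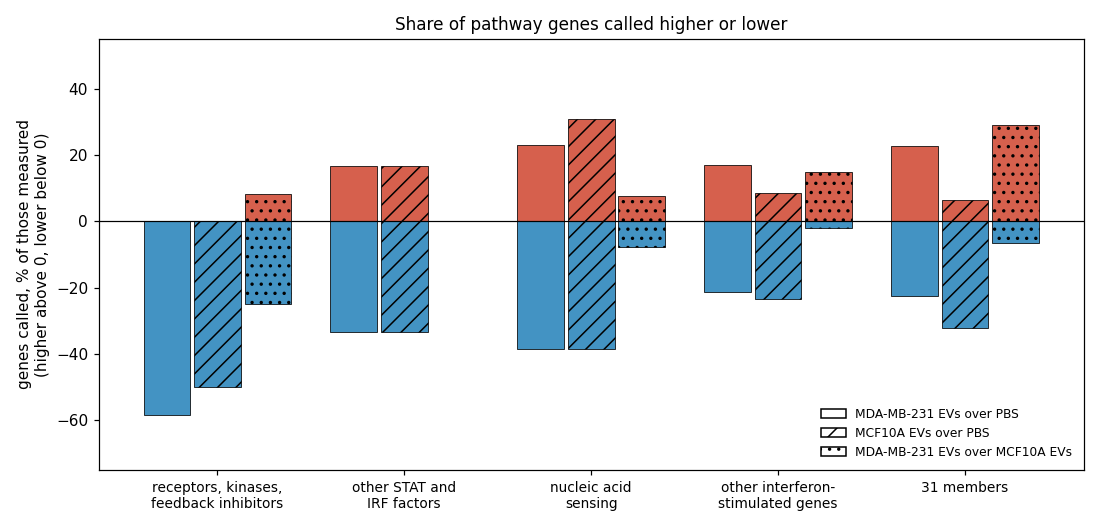
Share of measured genes called higher (above 0) and lower (below 0), in percent, for 4 groups of other pathway genes and the 31 members, with plain bars for MDA-MB-231 EVs over PBS, hatched bars for MCF10A EVs over PBS and dotted bars for MDA-MB-231 over MCF10A EVs. Receptors, kinases and feedback inhibitors have no bar above 0 over PBS, and the dotted bar of the members stands mostly above 0, at 9 higher and 2 lower.

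Fibroblast markers were read in every library: all 12 listed were in the table, with summed levels of 397200 to 406400 normalised reads with MDA-MB-231 EVs, 410100 to 422900 with MCF10A EVs and 480800 to 481600 with PBS. The macrophage and leukocyte list moved with the groups: 10 of its 12 genes were in the table, with sums of 997 to 1063 with MDA-MB-231 EVs, 1781 to 1835 with MCF10A EVs and 3038 to 3145 with PBS. Nearly all of that sum was Cd14, while the defining marker Ptprc had at most 1 read in a library and Cd3e and Emr1 had none. Other markers of that list were read: Csf1r had 26 to 91 reads a library and Lyz2 had 12 to 20. Csf1r was called lower with MDA-MB-231 EVs over PBS (log2 change -1.475, limma adjusted p = 2.47e-05) and was not called with MCF10A EVs over PBS. Lyz2 was not called. Endothelial markers summed to 157 to 194, 296 to 344 and 356 to 364 in the same order, and epithelial markers to 31.5 to 44.6, 37.0 to 42.9 and 48.9 to 50.5. The part of these marker shifts in the falls of Isg15, Rsad2, Isg20 and the Ifitm genes was not tested. All groups were labelled as the same line, NIH3T3, and a marker's level in bulk RNA does not count cells of a kind.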

How the data were processed

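RNA-seq was run on 6 NIH3T3 libraries, 2 per group. The submitters' processing notes name TopHat2, edgeR and the human build hg19, while the rows are mouse genes with mouse chromosomes, so the mouse build, the counter and the annotation stay unknown, and genes of the table are placed by chromosome alone. Libraries were stranded per the labels' protocols. The authors deposited a normalised signal per gene and library, edgeR quantile-adjusted pseudo-counts, in reads at a common library size. Inverting that adjustment gave whole reads for 100% of 122850 values within a relative 1e-06, with a common dispersion of 0.000591, and totals of 22451173 to 29315530 reads. The tests planned for normalised values were applied, since pseudo-counts had not been foreseen.

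Values plus 1 were taken to log2 and fitted with limma 3.58.1 (trend, R 4.3.3) over 15025 genes with at least 1 in at least 2 libraries, with 1 mean per group (3 residual and 11.5 prior degrees of freedom) and Benjamini-Hochberg adjustment over all of them. Log2 changes are on that scale and understate changes of low genes. edgeR 4.0.16 (12352 genes) and DESeq2 1.42.0 on the recovered reads were among 18 alternatives, 6 of which left out a library. The scripts were checked on simulated data. Members and lists were chosen with earlier results of these data known. Values in every library are given for members called in any comparison and for Isg15, Ifit1, Stat2 and Irf7, and up to 12 other called pathway genes with the largest changes are named. Il15, Ifnar2, Stat3, Tlr4, Cd14 and genes named for a count of 5 or fewer were chosen after their values were seen. Counts over lists may include a gene that is not reported here. No library was left out of the main comparisons. Exon lengths and overlaps came from GENCODE vM21, with a length for 95.8% of the genes.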

Additional observations from a re-analysis of the deposited data

How the results depend on the processing

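Over 738 recomputed values of single members, 576 kept direction and side of the threshold, 162 fell short of it and 0 reversed. edgeR on the recovered reads, TMM factors, a pseudocount of 0.5 and a minimum of 10 reads ended 0 of the 37 calls. Testing all genes without a filter ended 26, limma without trend 21, DESeq2 14, the 4 compared libraries alone 6, quantile normalisation 4, and library totals and a pseudocount of 5 ended 2 each. Leaving out 1 library ended 10 to 19. The cause was not tested. Replicate numbers did not pair the libraries (correlations of deviations 0.0135, 0.0127 and -0.0221), and a replicate block ended 1 call, Gbp2 between the EVs.

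With MDA-MB-231 EVs over PBS, 5231 genes were called, against 3286 without a filter, 3346 without trend and 3476 to 4828 without 1 library. Members called higher were 7, against 2, 4 and 3 to 7, and 4 by DESeq2, and members called lower were 7, against 4 without a filter and 4 to 7 without 1 library. Other pathway genes called higher were 12, against 6, 6 and 7 to 11, and lower 24, against 14, 12 and 13 to 22.

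With MCF10A EVs over PBS, 4764 genes were called, against 2433 without a filter, 2231 without trend and 2810 to 3983 without 1 library. Members called higher were 2, against 1, 1 and 1 to 2, and 1 by DESeq2, and members called lower were 10, against 3, 6 and 4 to 8. Other pathway genes called higher were 9, against 1, 2 and 3 to 6, and 4 by DESeq2, and lower 24, against 9, 7 and 12 to 17.

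With MDA-MB-231 over MCF10A EVs, 2541 genes were called, against 711 without a filter, 378 without trend, 1515 by DESeq2 and 721 to 1698 without 1 library. Members called higher were 9, against 1, 0 and 1 to 7, where 0 is limma without trend. Members called lower were 2, against 1 with a pseudocount of 5, 0 without a filter, with quantile normalisation, with library totals, without trend, by DESeq2 and in the 4 libraries alone, and 0 to 1 without 1 library. Other pathway genes called higher were 9, against 1 without a filter, 0 without trend, 14 at the minimum of 10, with library totals and by edgeR, 4 by DESeq2 and in the 4 libraries alone, and 0 to 5 without 1 library. Those called lower were 5, against 0 without a filter and without trend, 3 with library totals and in the 4 libraries alone, 2 by DESeq2, and 0 to 3 without 1 library.

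Members under about 25 reads a library, such as Rsad2, Irf7 and Zbp1, are limited by depth.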
